A study of Danio rerio with 4 samples.

Results

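The genes of autophagy and of mTORC1, the kinase complex built around the mechanistic target of rapamycin (mTOR), were examined in the livers of fasted wild type (WT) zebrafish and of fasted zebrafish homozygous for a mutation of *pex5* (pex5 KO in the sample labels, *pex5*-/- below), all at 6 days post-fertilization (dpf). Members were chosen by gene symbol among the protein-coding genes of the expression table. The rule took every symbol beginning with atg and a digit, map1lc3, gabarap, ulk1, ulk2, lamtor, rraga, rragc, rragd, wipi, tsc1, tsc2 or rheb, together with *sqstm1*, *nbr1a*, *nbr1b*, *optn*, *becn1*, *mtor*, *rptor*, *mlst8*, *tfeb*, *tfe3a* and *tfe3b*. It found 51 of 15615 protein-coding genes, in a table of 16405 genes in all. Genes named rragd or *tfe3b* were not analysed here. Of these, 3 (*tsc22d1*, *tsc22d2* and *tsc22d3*) were taken in only because their symbols begin with tsc2. They encode leucine zipper proteins of the TSC22 family and are not subunits of the tuberous sclerosis complex, and they are kept apart below, which leaves 48 genes of autophagy and mTORC1. Each genotype was represented by 2 libraries of whole liver, replicates 1 and 4 for WT and replicates 1 and 2 for *pex5*-/-. Larvae of all 4 libraries were fasted, so that the effect of fasting itself cannot be seen. The mutant line descends from a single founder with a small deletion made by CRISPR/Cas9 that truncates Pex5, and maternal product is present early in development. How many livers went into a library, and whether the libraries came from separate clutches, is not given in the sources used here, so that the spread between libraries may be technical.

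Autophagy encloses part of the cytoplasm in a double membrane and delivers it to the lysosome. A kinase complex of Ulk, Atg13 and Atg101 starts the process, a lipid kinase complex with Beclin 1 and the membrane protein Atg9 build the membrane, and a pair of ubiquitin-like conjugation systems attach proteins of the LC3 and GABARAP families to it, to which cargo receptors such as p62 bind. mTORC1, a kinase complex on the lysosomal surface that is switched on by amino acids through the Rag GTPases and the Ragulator complex and by growth factors through Rheb, phosphorylates the Ulk complex and thereby holds autophagy back. In the liver, fasting normally lowers mTORC1 activity and raises autophagy, which supplies amino acids and lipids. Most of this control acts on proteins by phosphorylation, lipidation and turnover, none of which an RNA library records. The question here was whether the transcripts of the pathway differed between the genotypes under fasting.

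The libraries read RNA near its 3′ end and held between 1217737 and 1425834 deduplicated reads, where a read stands for 1 captured molecule. Values are given in TMM, the normalized reads of the authors, with 1 read equal to 0.691 TMM in the deepest library and to 0.785 TMM in the shallowest. TMM values are not divided by transcript length, and levels are compared between libraries and not between genes. Mutant and WT libraries did not separate as groups, since WT replicate 1 was closest to *pex5*-/- replicate 2 (Pearson's r = 0.927) and WT replicate 4 closest to *pex5*-/- replicate 1 (r = 0.916), while r was 0.826 and 0.878 within the genotypes. These correlations run across the 3349 genes whose mean reached 10 TMM, which are not independent replicates. Each of the 11 hepatocyte markers examined had reads. Their summed level was 82772 and 87066 TMM in WT and 139647 and 132782 TMM in *pex5*-/- libraries, a gap that came from *apoa2*, since the other 10 summed to 15238 and 16003 TMM in WT and to 15655 and 13962 TMM in *pex5*-/- libraries and overlapped. Of the 11, *apoa2* and *tfa* lay above and *fgb* and *fgg* below WT in both mutant libraries. The 8 heart muscle markers found, none of which was at 0 in every library, summed to 194 and 258 TMM in WT and to 18.04 and 76.0 TMM in *pex5*-/- libraries, and 7 of the 8 were lower in both mutant libraries than in both WT libraries. The summed level was also apart between genotypes for 6 erythrocyte markers (349 to 593 TMM in WT, 930 to 1030 TMM in *pex5*-/-), for 5 markers of macrophages and neutrophils (2.36 to 4.97 and 7.60 to 12.0 TMM), for 6 of endothelium and stellate cells (71.0 to 79.3 and 55.6 to 58.8 TMM) and for 4 of bile duct (827 to 1188 and 732 to 801 TMM). These sums hid genes that differed from them. The bile duct gap was that of *anxa4*, with the other 3 markers overlapping in their sum (13.5 to 20.4 and 13.5 to 20.05 TMM), and in the endothelial and stellate list *kdrl*, *hand2* and *colec11* were lower but *cdh5* was higher in both mutant libraries. Of the erythrocyte markers 2 were apart, *hbae3* and *hbbe2*, both higher, and of the macrophage and neutrophil markers 3 were higher and 2 lower, on at most 7 reads each in a library. Single libraries stood out in other lists. The 6 genes of the intestine list other than *pck1* summed to 9.93 and 69.1 TMM in WT libraries. In *pex5*-/- replicates 1 and 2 they summed to 691 and 12.4 TMM. *pck1* did not follow them and is not read here as a sign of intestine, with 297 and 310 TMM in WT and 165 and 297 TMM in *pex5*-/- libraries. The 6 skeletal muscle markers found summed to 341 and 2191 TMM in WT and to 843 and 917 TMM in *pex5*-/- libraries. These are whole-tissue samples, in which fewer cells of a type, in the liver or beside it, and less RNA per cell cannot be told apart. The part of cell composition in the values below was not tested. Transcripts of *pex5* itself were not analysed here, so that no check of the genotype labels was made with them.

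The autophagy and mTORC1 transcripts were split between higher and lower values in fasted *pex5*-/- livers, and none of them passed the test. Among the 18 genes tested, the largest difference was that of *atg5*, a conjugation gene that was higher in both mutant libraries, whereas the LC3, GABARAP and Ulk genes overlapped between the genotypes. These 18 of the 51 genes reached a mean of 10 TMM and were tested, all of them among the 48 genes of the pathway proper, and they held 3497 of the 3828 reads of these 48 genes (91.4%). Of the 18, 8 had a higher and 10 a lower mean log2(TMM + 1) in *pex5*-/- livers. The share of higher genes was thus 44.4%, beside 50.5% of all 3349 genes tested. The median difference between genotypes was -0.07 on the log2 scale, and 0.00 over all genes tested. The share rested on single libraries, being 61.1% without WT replicate 1, 33.3% without WT replicate 4, 72.2% without *pex5*-/- replicate 1 and 38.9% without *pex5*-/- replicate 2. The summed level of the 48 genes was 720 and 675 TMM in the WT libraries and 661 and 743 TMM in the *pex5*-/- libraries, so that the genotypes overlapped.

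In limma with Benjamini-Hochberg adjustment over the 3349 genes, 0 of the 18 had an adjusted p under 0.05 (background 0%), and each had an adjusted p of 1.00 after rounding. At an unadjusted p under 0.05 there were again 0 of the 18, where 3.61% of all genes tested passed this threshold, 2.54% higher and 1.07% lower. With voom weights on the reads, limma gave 0 and 0 as well. The *pex5*-/- libraries lay both above both WT libraries for 2 of the 18 genes (11.1%, background 16.9%) and both below for 1 gene (5.56%, background 13.5%). For 15 of the 18 genes (83.3%, background 80.9%), the replicates of at least 1 genotype differed by more than the genotypes did. The 95% intervals of the 18 differences all held 0, and 6 of them lay within a 2-fold change in either direction on this scale, from -1 to 1, while 12 reached beyond it. Even the narrowest interval, of *gabarapl2*, ran from -0.74 to 0.59, so that equal expression is not shown for any of these genes. For any gene taken alone, 2 libraries against 2 allow an exact two-sided permutation p of 0.333 at the lowest.

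**Figure D1:**
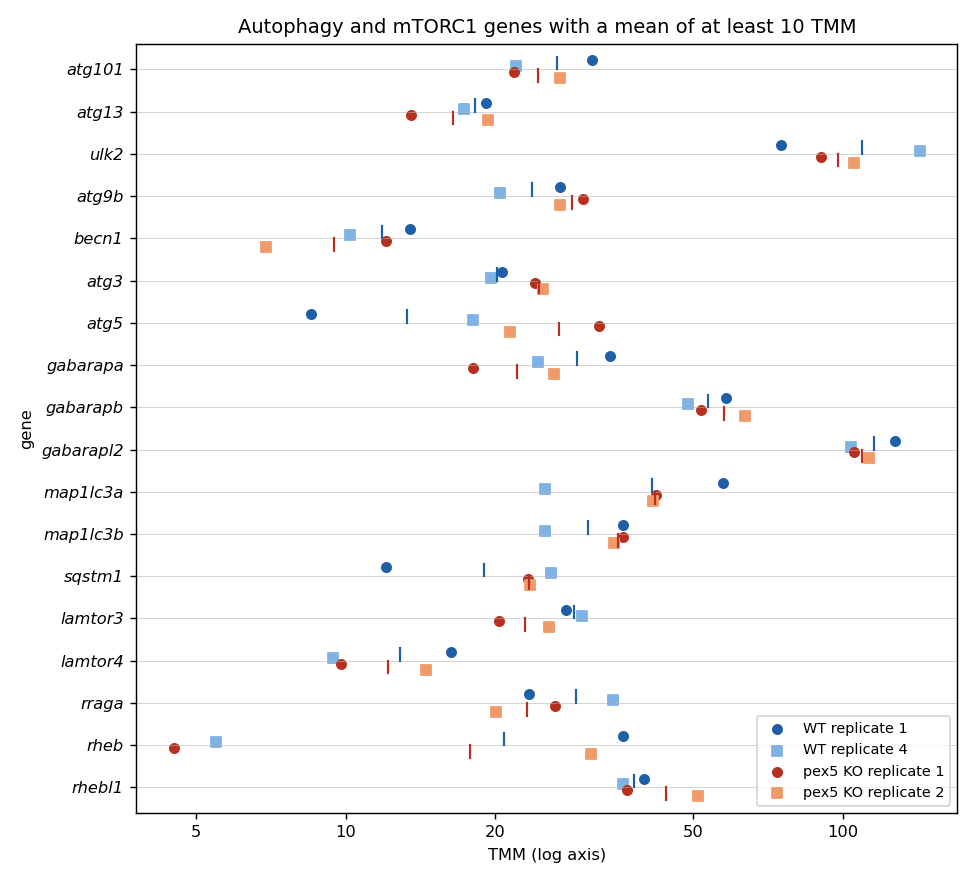
TMM values (log axis) of the 18 autophagy and mTORC1 genes that reached a mean of 10 TMM in each of the 4 libraries, with WT in blue, *pex5*-/- in red, and vertical ticks at the mean of each genotype (n = 2). The genotypes are apart only for *atg3*, *atg5* and *lamtor3*, and *rheb* is near 5 TMM in a library of each genotype and above 30 TMM in the other.

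Among the genes that start autophagy, *ulk2* (ENSDARG00000097205, chromosome 15), which encodes a kinase that initiates the process, had 75.2 and 143 TMM in the WT libraries and 90.2 and 105 TMM in the *pex5*-/- libraries. Both mutant libraries fell between the WT libraries, and the difference was -0.09 on the log2 scale (standard error 0.38, 95% interval -1.07 to 0.89). Its paralogs *ulk1a* and *ulk1b* had at most 2 reads in any library, so that nearly all Ulk reads came from *ulk2*. *atg13* (ENSDARG00000036040, chromosome 7), the regulatory subunit that mTORC1 phosphorylates, had 19.2 and 17.3 TMM in WT and 13.5 and 19.4 TMM in *pex5*-/- livers. *atg101* (ENSDARG00000043287, chromosome 10), which stabilizes Atg13, had 31.2 and 22.0 TMM and 21.8 and 27.0 TMM, respectively. For both of these subunits the genotypes overlapped, with differences of -0.16 (standard error 0.35) and -0.11 (standard error 0.32). The 95% intervals of *ulk2*, *atg13* and *atg101* reached down to -1.07, -1.06 and -0.93. Those of *ulk2* and *atg13* thus still held a 2-fold fall on this scale, and that of *atg101* ended just short of it.

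Of the genes for membrane growth, *becn1* (ENSDARG00000079128, chromosome 12), encoding Beclin 1 of the lipid kinase complex, stood just above the limit of 10 TMM, with 13.5 and 10.2 TMM in WT and 12.0 and 6.91 TMM in *pex5*-/- livers. Only 10 to 19 reads per library lay behind these values, and the difference of -0.33 had a standard error of 0.57. *atg9b* (ENSDARG00000055292, chromosome 24), a paralog of the membrane protein that seeds the autophagosome, had 27.0 and 20.4 TMM in WT and 30.1 and 27.0 TMM in *pex5*-/- livers. WT replicate 1 equalled *pex5*-/- replicate 2, and the difference was 0.27 (standard error 0.30). The other paralog, *atg9a*, had 10 and 7 reads in WT against 3 and 7 reads in *pex5*-/- libraries, which gave values of 7.10 and 5.50 TMM and of 2.25 and 4.84 TMM. Its mutant values were lower, but the ratio of summed reads was 0.568 with an exact binomial 95% interval of 0.233 to 1.31 that covers counting error only. *wipi1*, whose product binds the lipid made by the Beclin 1 complex, was read 9 and 0 times in WT libraries and 10 and 7 times in *pex5*-/- libraries, and *wipi2* had 1 or 2 reads in each library.

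Both of the tested conjugation genes were higher in both mutant libraries than in both WT libraries, without passing the test. Of all genes tested, 16.9% lay above in this way, and the other 5 conjugation genes were not tested. *atg5* (ENSDARG00000023396, chromosome 16), whose product is joined to Atg12 to form the ligase that lipidates LC3, had 8.52 and 18.1 TMM in WT and 32.3 and 21.4 TMM in *pex5*-/- livers. Both mutant libraries were above both WT libraries, with means of 13.3 ± 6.75 TMM in WT and 26.9 ± 7.70 TMM in *pex5*-/- (SD, n = 2 libraries each). The difference was 1.02 on the log2 scale, with a standard error of 0.47 and a 95% interval of -0.18 to 2.22 in limma. The unadjusted p was 0.0810 and the adjusted p 1.00 from this limma fit, so that the difference did not pass the test. It rested on 12 and 23 reads against 43 and 31 reads, and the ratio of summed reads was 2.04 with a counting interval of 1.35 to 3.15, which leaves out the spread between livers. The size of the difference depended on single libraries, being 0.52 without WT replicate 1, 1.52 without WT replicate 4, 0.74 without *pex5*-/- replicate 1 and 1.31 without *pex5*-/- replicate 2.

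*atg3* (ENSDARG00000009350, chromosome 6), the enzyme that transfers LC3 to its lipid, was the only other of the 18 genes with both mutant libraries above both WT libraries. It had 20.6 and 19.6 TMM in WT and 24.1 and 24.9 TMM in *pex5*-/- livers, and replicates differed by 0.06 or less on the log2 scale in each genotype. The difference of 0.27 (standard error 0.28) was small, with an unadjusted p of 0.373 and an adjusted p of 1.00 in limma, and it stayed between 0.24 and 0.30 when any library was left out. The remaining conjugation genes were too sparsely read for a comparison. *atg7*, the activating enzyme shared by both systems, had 2 reads in WT replicate 4 and 2 in *pex5*-/- replicate 2 and 0 in the others. *atg12*, the partner of Atg5, had at most 2 reads and *atg10*, which joins them, at most 4 reads in a library. *atg16l1*, which brings the ligase to the membrane, was read 8 and 6 times in WT libraries and 7 and 10 times in *pex5*-/- libraries, and *atg16l2* had a single read in all. The partners of Atg5 thus gave no direction at this depth that could be set beside that of *atg5*. The Atg4 proteases, which trim and recycle LC3, had between 1 and 13 reads per library. Of these, *atg4a* was read 5 and 5 times in WT libraries and 7 and 9 times in *pex5*-/- libraries, *atg4b* 6 and 6 against 6 and 9, *atg4c* 3 and 3 against 1 and 5, and *atg4da* 7 and 9 against 13 and 10. Summed over the 4 proteases, the level was 14.9 and 18.1 TMM in WT and 20.3 and 22.8 TMM in *pex5*-/- livers, a separation carried by 21 to 33 reads per library. Sums were also apart for the conjugation genes, at 38.3 and 48.7 TMM in WT and 62.4 and 57.4 TMM in *pex5*-/- livers. This gap came from *atg5*, without which the sums of the other conjugation genes overlapped between the genotypes. The sums of the cargo receptors were 16.3 and 29.1 TMM in WT and 29.3 and 31.8 TMM in *pex5*-/- livers, only just apart. WT replicate 4 and *pex5*-/- replicate 1 lay closest, on 37 and 39 reads. *sqstm1*, which held most of the reads of this group, overlapped between the genotypes. The Rag and Ragulator genes below were apart in the other direction, and the other groups of pathway genes overlapped. How often such sums are apart in other sets of genes was not examined.

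The LC3 and GABARAP genes, whose products coat the autophagosome, were the most deeply read group. *gabarapl2* (ENSDARG00000027200, chromosome 25) had 127 and 104 TMM in WT and 105 and 113 TMM in *pex5*-/- livers. The mutant values lay inside the WT range, and the difference of -0.08 had the narrowest 95% interval of the 18 genes, -0.74 to 0.59. *gabarapb* (ENSDARG00000052082, chromosome 7) had 58.2 and 48.7 TMM in WT and 51.9 and 63.6 TMM in *pex5*-/- livers, again overlapping. *gabarapa* (ENSDARG00000035557, chromosome 5) had 34.1 and 24.3 TMM in WT and 18.04 and 26.3 TMM in *pex5*-/- livers, and its difference of -0.39 (standard error 0.34) was the lowest of the 18. It ranged with the library left out, from -0.13 without *pex5*-/- replicate 1 to -0.65 without *pex5*-/- replicate 2. *pex5*-/- replicate 2 lay between the WT libraries for this gene, so that the genotypes were not apart.

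The LC3 protein itself was followed in the study by immunoblotting of whole larvae, in its lipidated form. The paper reported more of this form in fasted *pex5*-/- than in WT larvae. Chloroquine, which blocks autophagy, raised this form in WT larvae but changed it little in *pex5*-/- larvae, from which the paper proposed a block of autophagy in the fasted mutant. In the liver libraries here, the LC3 transcripts gave no direction between the genotypes. *map1lc3a* (ENSDARG00000033609, chromosome 11) had 57.5 and 25.1 TMM in WT and 42.1 and 41.5 TMM in *pex5*-/- livers. The mutant libraries were nearly equal and the WT libraries differed by 1.16 on the log2 scale, and the difference between genotypes was 0.13 (standard error 0.44). *map1lc3b* (ENSDARG00000101127, chromosome 25) had 36.2 and 25.1 TMM in WT and 36.1 and 34.6 TMM in *pex5*-/- livers, a difference of 0.22 (standard error 0.30). In both LC3 genes WT replicate 4 was lowest and WT replicate 1 highest. Without WT replicate 4 the differences turned to -0.45 for *map1lc3a* and to -0.03 for *map1lc3b*. *map1lc3c* had a single read, in WT replicate 4. The 6 LC3 and GABARAP genes together had 313 and 228 TMM in the WT libraries and 253 and 279 TMM in the *pex5*-/- libraries, the mutant values lying between those of WT.

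Among the cargo receptors, *sqstm1* (ENSDARG00000075014, chromosome 14) encodes p62, which carries ubiquitinated cargo to LC3 and is itself degraded by autophagy. The gene had 12.1 and 25.9 TMM in WT and 23.3 and 23.5 TMM in *pex5*-/- livers. The *pex5*-/- libraries were nearly equal and lay below WT replicate 4 and above WT replicate 1. The difference was 0.38 (standard error 0.43, 95% interval -0.73 to 1.49, unadjusted p = 0.420 and adjusted p = 1.00 in limma), and it was -0.14 without WT replicate 1 and 0.90 without WT replicate 4. The direction thus depended on which WT library was used. The paper measured this same transcript by quantitative PCR, relative to beta-actin, in livers of fasted larvae. It reported more *p62* mRNA in *pex5*-/- than in WT livers, and more p62 protein. The interval of -0.73 to 1.49 found here holds 0 and also sizeable rises, so that these libraries cannot decide whether the transcript rose. *nbr1b*, a receptor related to p62, was read 5 and 1 times in WT libraries and 5 and 12 times in *pex5*-/- libraries, or 3.55 and 0.785 TMM against 3.76 and 8.30 TMM. Both mutant values were above both WT values, though only just so for *pex5*-/- replicate 1, and the ratio of summed reads was 2.74 with a counting interval of 1.03 to 8.48. *nbr1b* and *atg5* were the 2 of 45 genes with reads in both genotypes whose counting interval left out 1 (4.44%, background 14.3% of 11156 genes). *nbr1a* and *optn* (optineurin, a receptor in mitophagy) had at most 2 reads in any library.

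**Figure D2:**
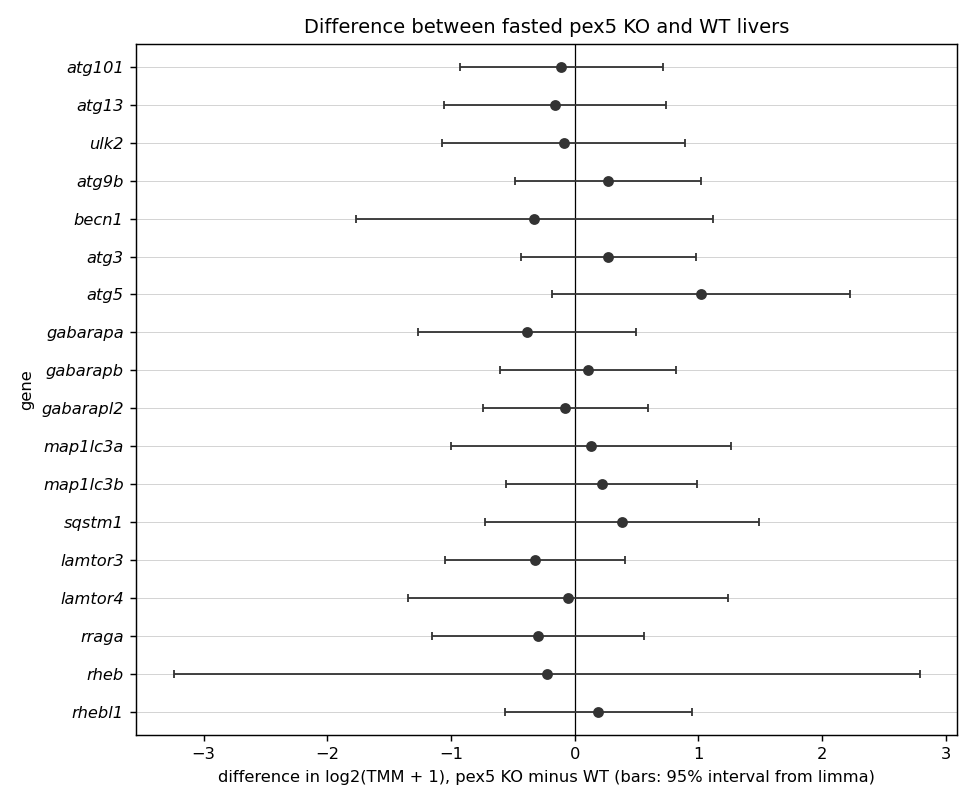
Difference in log2(TMM + 1) between *pex5*-/- and WT livers for the 18 genes tested (points) with 95% intervals from limma (bars, 2 libraries per genotype). All 18 intervals hold 0, from the narrowest, of *gabarapl2* (-0.74 to 0.59), to the widest, of *rheb* (-3.24 to 2.79), and *atg5* lies farthest from 0 at 1.02.

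The core subunits of mTORC1 were hardly captured. The kinase gene *mtor* was read 0 and 4 times in WT libraries and 4 and 3 times in *pex5*-/- libraries, and *mlst8* had 1 read in a library of each genotype. *rptor*, whose product Raptor recruits the substrates of mTORC1, had 0 reads in all 4 libraries, a count that allows a level of up to 3 reads, or between 2.07 and 2.36 TMM, in each. This bound covers counting error only, and whether the 3′ end of the transcript falls within its annotated gene was not examined. A difference in these 3 transcripts was not detectable at this depth.

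The Rag GTPases and the Ragulator complex, which bring mTORC1 to the lysosome when amino acids are plentiful, were represented by 8 genes, of which 3 were tested. Each of the 3 had a lower mean in *pex5*-/- livers, without passing the test, where 50.5% of all genes tested had a higher mean. *lamtor3* (ENSDARG00000057075, chromosome 13), a Ragulator subunit, had 27.7 and 29.8 TMM in WT and 20.3 and 25.6 TMM in *pex5*-/- livers. It was the only one of the 18 genes with both mutant libraries below both WT libraries, with a difference of -0.32 (standard error 0.29, unadjusted p = 0.310 and adjusted p = 1.00 in limma). Its size also depended on single libraries, being -0.16 without *pex5*-/- replicate 1 and -0.48 without *pex5*-/- replicate 2. *rraga* (ENSDARG00000104149, chromosome 14), encoding the GTPase RagA, had 23.4 and 34.6 TMM in WT and 26.3 and 20.05 TMM in *pex5*-/- livers, a difference of -0.30 (standard error 0.34) with overlap that was -0.03 without WT replicate 4 and -0.57 without WT replicate 1. *lamtor4* (ENSDARG00000045542, chromosome 4) had 16.3 and 9.42 TMM and 9.77 and 14.5 TMM, respectively, a difference of -0.06. It was higher in WT replicate 1 and *pex5*-/- replicate 2 than in the other libraries. *lamtor2* had between 3 and 7 reads per library, *lamtor5*, *rragca* and *rragcb* had at most 4 reads, and *lamtor1* had 0 reads in all 4 libraries. The summed level of the 8 genes was 73.8 and 80.1 TMM in WT and 63.1 and 66.4 TMM in *pex5*-/- livers, with most of the reads coming from *rraga* and *lamtor3*.

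*rheb* (ENSDARG00000090213, chromosome 24), the GTPase that directly activates mTORC1, varied most between replicates. It had 36.2 and 5.50 TMM in the WT libraries and 4.51 and 31.1 TMM in the *pex5*-/- libraries, from 51, 7, 6 and 45 reads. WT replicate 1 and *pex5*-/- replicate 2 were high and the other libraries low, so that the replicates differed by -2.52 (WT, replicate 4 minus 1) and 2.54 (*pex5*-/-, replicate 2 minus 1) on the log2 scale and the genotypes by -0.22 (standard error 1.18). The direction between genotypes was set by the library left out, from -1.5 to 1.05. Of the 3349 genes tested, 93 (2.78%) differed at least as widely between the replicates of both genotypes, and 76 of these were high in the same libraries as *rheb*. No other member did. The same libraries had 11295 and 11228 genes with reads, against 10690 and 10696 in the others. The 12 exocrine pancreas markers, none of them at 0 in every library, had a lower sum in them (1555 and 1772 TMM against 3988 and 2715 TMM). Among these markers *prss59.1* differed from the sum, with 443 TMM in *pex5*-/- replicate 2 and 434 TMM in *pex5*-/- replicate 1. The part of the number of genes with reads or of these markers in the *rheb* values was not tested.

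The related *rhebl1* (ENSDARG00000039162, chromosome 6) did not vary in this way, with 39.7 and 36.1 TMM in WT and 36.8 and 51.2 TMM in *pex5*-/- livers and a difference of 0.19 (standard error 0.30). The tuberous sclerosis complex, which switches Rheb off and which has been placed on the peroxisome in cultured cells, was read thinly. *tsc2*, its GTPase-activating subunit, was read 6 and 4 times in WT libraries and 6 and 6 times in *pex5*-/- libraries, and *tsc1a* had a single read, in WT replicate 4. For *tsc2* the counting interval of the ratio of summed reads began at 0.459, so that even a fall by more than 2-fold lay within counting error. *tfeb* and *tfe3a*, transcription factors that mTORC1 keeps out of the nucleus and that switch on lysosomal and autophagy genes, had at most 4 and 2 reads in a library.

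**Figure D3:**
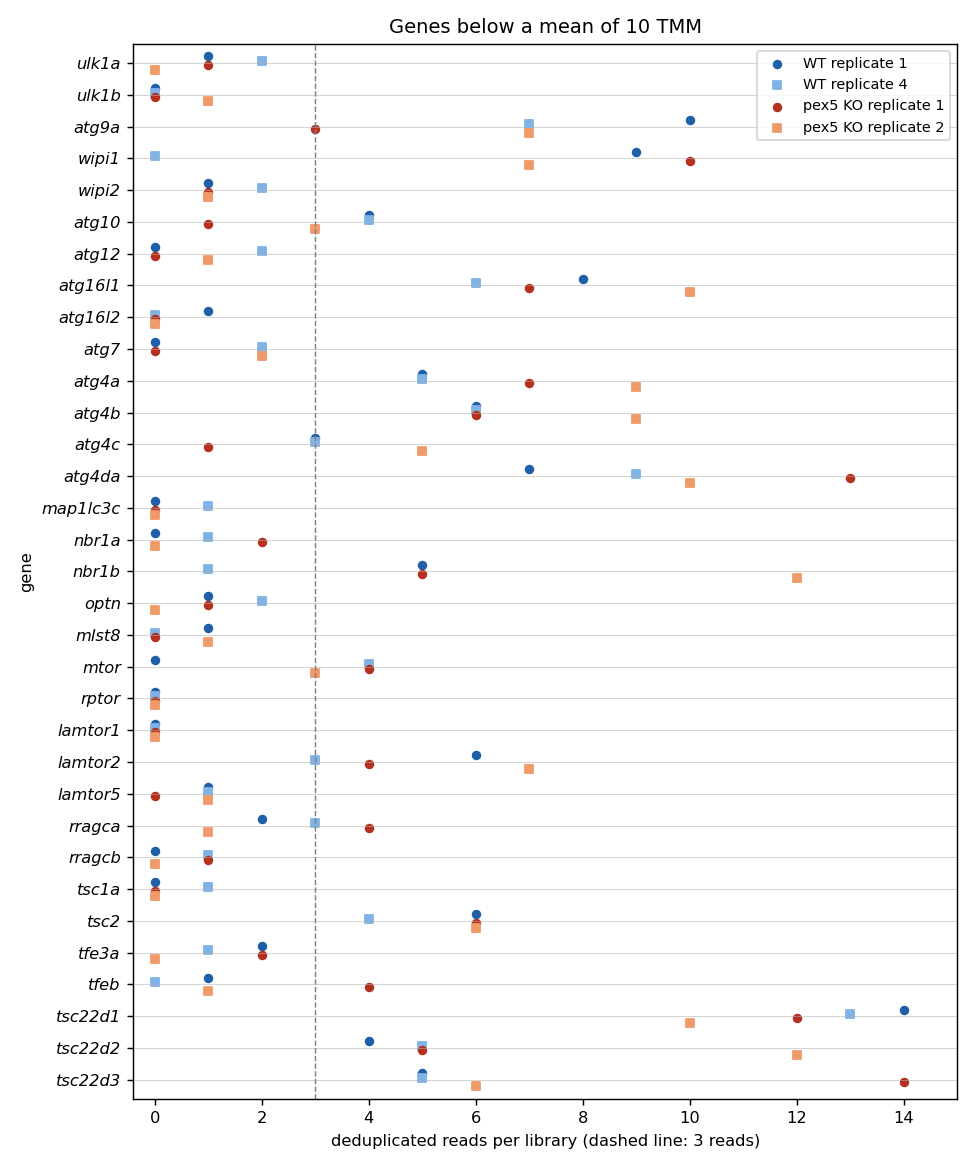
Deduplicated reads per library of the 33 genes with a mean under 10 TMM, with WT in blue, *pex5*-/- in red, and a dashed line at 3 reads. The highest count in a library is 14 (*tsc22d1* and *tsc22d3*), and 21 of the 33 genes have at most 5 reads in every library.

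In all, 33 of the 51 genes had a mean under 10 TMM. Of these, 21 had at most 5 reads in every library and 12 had more, up to 14 reads. *rptor* and *lamtor1* were the 2 genes without a read. The 33 included the whole core of mTORC1, the proteases and the transcription factors, so that the transcript data bear on the LC3 and GABARAP genes, the Ulk complex and parts of the Rag and Rheb branch more than on the rest. Of the 3 genes taken in by prefix alone, *tsc22d3*, a glucocorticoid-induced gene in mammals, was read 5 and 5 times in WT libraries and 14 and 6 times in *pex5*-/- libraries, with a counting interval of 0.863 to 4.62 for the ratio. *tsc22d1* had 14 and 13 reads against 12 and 10, and *tsc22d2* had 4 and 5 against 5 and 12. None of these reached a mean of 10 TMM.

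Beside the members, 126 other genes of autophagy, mitophagy, nutrient sensing and the outputs of mTORC1 were listed by symbol, of which 104 were found and 29 reached a mean of 10 TMM. In limma with Benjamini-Hochberg adjustment, 0 of the 29 had an adjusted p under 0.05 and 0 an unadjusted p under 0.05, also with voom weights. Of the 29, 14 were higher and 15 lower in *pex5*-/- livers, with a median difference of -0.02, and 4 lay above and 4 below without overlap between genotypes (background 16.9% and 13.5%). Among those below, *tollip* and *eif4ebp3* were only just apart. The largest differences without overlap were *deptor* and *prkag1*, both lower, and *fundc2*, higher.

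*deptor*, an inhibitor that binds mTOR, had 19.2 and 30.6 TMM in WT and 15.8 and 13.1 TMM in *pex5*-/- livers. Its difference of -0.71 (standard error 0.37) had an unadjusted p of 0.110 and an adjusted p of 1.00 in limma and lay between -1.04 and -0.39 with a library left out. *prkag1*, a regulatory subunit of the energy sensor AMPK, which opposes mTORC1, had 36.2 and 73.0 TMM in WT and 33.8 and 31.8 TMM in *pex5*-/- livers. The difference of -0.63 (standard error 0.40) rested on WT replicate 4, without which it was -0.14. The other AMPK subunits tested overlapped between genotypes, among them *prkaa1*, the gene of a catalytic subunit, with 12.8 and 14.1 TMM in WT and 15.8 and 13.1 TMM in *pex5*-/- livers.

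In the list of mitophagy and other selective receptors, *fundc2* encodes a protein of the outer mitochondrial membrane. It had 24.8 and 17.3 TMM in WT and 30.8 and 33.9 TMM in *pex5*-/- livers. Its difference was 0.62 (standard error 0.31, unadjusted p = 0.103 and adjusted p = 1.00 in limma), and it was 0.37 without WT replicate 4 and 0.87 without WT replicate 1. The related *fundc1* overlapped between genotypes, with 16.3 and 3.93 TMM in WT and 10.5 and 12.4 TMM in *pex5*-/- livers. *sec62*, which acts in protein entry into the endoplasmic reticulum and as a receptor for its turnover, was apart by 0.28 and *tollip*, an endosomal adaptor, by -0.14. For *tollip* the genotypes nearly met, at 66.0 TMM in WT replicate 4 and 65.7 TMM in *pex5*-/- replicate 2. The kinase gene *pink1*, which marks damaged mitochondria for removal, had between 5 and 10 reads per library and *prkn*, its partner, at most 1 read.

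Downstream of mTORC1, *rps6* encodes ribosomal protein S6, whose phosphorylated form the study used as a readout of mTORC1 activity. Its transcript had 508 and 594 TMM in WT and 664 and 648 TMM in *pex5*-/- livers. Both mutant libraries were above both WT libraries, with a difference of 0.25 (standard error 0.22) and an unadjusted p of 0.296 and adjusted p of 1.00 in limma. *pdcd4a*, a translation inhibitor that is degraded when mTORC1 is active, was also apart, by 0.31 (standard error 0.27). The genes of the translation repressors 4E-BP differed among themselves. *eif4ebp3* had 106 and 96.6 TMM in WT and 65.4 and 96.1 TMM in *pex5*-/- livers, a difference of -0.35 (standard error 0.30) that was -0.08 without *pex5*-/- replicate 1. *eif4ebp2* had 199 and 291 TMM and 260 and 276 TMM, and *eif4ebp3l* 88.7 and 95.02 TMM and 90.2 and 79.5 TMM, both with overlap. *eif4ebp1*, the form followed by immunoblotting of whole larvae, was read 2 and 3 times in WT libraries and 5 and 5 times in *pex5*-/- libraries. *rps6kb1a*, which encodes an S6 kinase, had a single read.

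**Figure D4:**
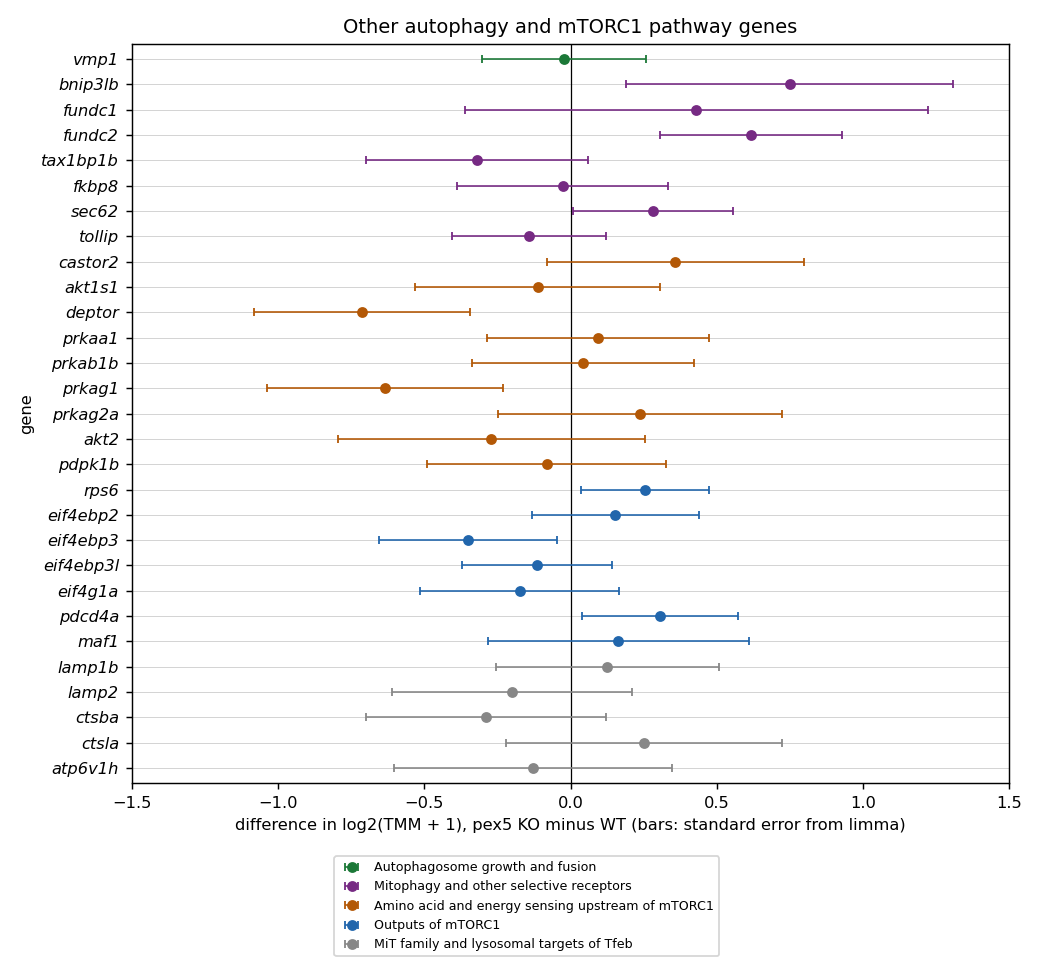
Difference in log2(TMM + 1) between *pex5*-/- and WT livers for the 29 other genes of the pathway that reached a mean of 10 TMM (points, coloured by list) with standard errors from limma (bars, 2 libraries per genotype). Points lie on both sides of 0 in 4 of the 5 lists, the fifth holding only *vmp1*, and range from -0.71 (*deptor*) to 0.75 (*bnip3lb*, whose genotypes overlap).

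Of the lysosomal genes that Tfeb can switch on, 5 reached a mean of 10 TMM, and none was apart between the genotypes. The cathepsin gene *ctsba* had 55.4 and 30.6 TMM in WT and 27.1 and 41.5 TMM in *pex5*-/- livers, and the proton pump subunit *atp6v1h* had 95.8 and 58.1 TMM and 46.6 and 99.5 TMM. Both were highest in WT replicate 1 and *pex5*-/- replicate 2, the libraries in which *rheb* was high. *ctsla*, another cathepsin gene, stood at 296 TMM in *pex5*-/- replicate 1 and between 120 and 162 TMM in the others.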

How the data were processed

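Total RNA of whole livers from fasted larvae was sequenced by CEL-Seq2, a 3′ method in which molecules carry unique molecular identifiers (UMIs). Per the paper's methods and the submitters' processing notes, the authors used UMI-tools 1.1.1, Trim Galore 0.6.7, HISAT2 2.2.1 (GRCz11) and featureCounts 2.0.1, removed UMI duplicates, applied TMM scaling in edgeR and deposited log2(TMM + 1) per gene and library. The annotation release is not given in the sources used here. Reads were counted once per molecule, so that replicate libraries carry counting error plus the spread between samples, seen here through 2 libraries per genotype.

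The logarithm was undone. A fixed step per library divided 100% of its values into whole numbers (within 0.05), which gave back the reads. Tests were run on the log2 values in limma 3.58.1 (R 4.3.3, lmFit and eBayes with trend) with a pseudocount of 1, over the 3349 genes that reached 10 TMM on average, and p-values were adjusted by Benjamini-Hochberg (threshold 0.05). The function was tested on simulated data. Intervals of read ratios are exact binomial (95%) and cover counting error only. Levels at 0 reads were bounded by 3 reads, which also covers counting error only. Python 3.11.15, pandas 2.3.3 and scipy 1.17.1 were used for the rest.

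Members and lists were chosen with earlier results of these data known. Values are given for every member that reached this level, for *sqstm1* and the LC3 genes at any level, for members with at least 10 reads in a library and no overlap, and by range or reads for the others. Of the other pathway genes, up to 4 rises and 4 falls without overlap and the followed outputs of mTORC1 are named, and others named were chosen after their values were seen. Other pseudocounts, filters and scaling were tried, as were voom weights on the reads (added after the data were seen) and leaving out each library.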

Additional observations from a re-analysis of the deposited data

How the results depend on the processing

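The 18 members and 10 other pathway genes were followed through the alternatives. The sign of the difference was the same with a pseudocount of 5 or 0.5, with every library rescaled to the same total and with voom weights. A limit of 5 TMM or none only changes which genes enter the fit, so that the differences and their signs could not change. These filter settings are among the 168 of 168 values that kept their sign. No adjusted p of these genes fell under 0.05 in these settings. Without a filter, 3 of the 100 other pathway genes with reads had an unadjusted p under 0.05 in limma, against 0 with it. They were *vps11*, *vamp8* and *vps18*, each with few reads. Over all genes with reads, 300 of 14832 passed this threshold without a filter. With a library left out, a genotype is left with a single library, so that only the direction and size of the differences are given. The share of higher genes then ranged from 33.3% to 72.2% for the members and from 37.9% to 55.2% for the other pathway genes.

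Signs turned in 18 of 112 such values, and the log2 differences ranged from -0.35 to 0.14 for *atg101*, from -0.40 to 0.08 for *atg13*, from -0.55 to 0.37 for *ulk2*, from -0.69 to 0.03 for *becn1*, from -0.04 to 0.25 for *gabarapb*, from -0.22 to 0.07 for *gabarapl2*, from -0.45 to 0.71 for *map1lc3a*, from -0.03 to 0.47 for *map1lc3b*, from -0.14 to 0.90 for *sqstm1*, from -0.42 to 0.31 for *lamtor4*, from -1.5 to 1.05 for *rheb*, from -0.04 to 0.42 for *rhebl1* and from -0.12 to 0.42 for *eif4ebp2*. Other genes kept their sign but moved by over 1.5 times, among them *atg9b* (0.08 to 0.46), *rps6* (0.14 to 0.37), *pdcd4a* (0.18 to 0.43), *sec62* (0.13 to 0.43), *tollip* (-0.27 to -0.01) and *eif4ebp3l* (-0.21 to -0.03). The cause was not tested. A count model on the recovered reads was planned but not run. No paired analysis was possible because the genotypes share only replicate number 1.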
